A study of Mus musculus with 12 samples.

Results

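Oxidative phosphorylation genes encode the subunits of the mitochondrial respiratory chain and of ATP synthase. They were taken from the count table by gene name, as the Nduf genes of complex I, the Sdh genes of complex II, the Uqcr genes of complex III, the Cox4 to Cox8 genes of complex IV, the Atp5 genes of complex V and the protein-coding genes of the mitochondrial genome, leaving out names marked as pseudogenes. The rule found 97 of 32285 genes, of which 84 are nuclear and 13 are mitochondrial (mt-). The nuclear members comprised 35 genes of complex I, 4 of complex II, 8 of complex III, 20 of complex IV and 17 of complex V, with Ndufa4 and Ndufa4l2 counted under complex IV. The mitochondrial members comprised 7 genes of complex I, 1 of complex III, 3 of complex IV and 2 of complex V.

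RNA was profiled in bulk from 2 bone marrow (BM) progenitors of C57BL6/J mice of wild-type (WT) genotype, and the labels name no treatment or transgene for any group. Ly6d- CLPs (common lymphoid progenitors that lack Ly6d) and Flk2+ MPPs (multipotent progenitors) were sorted by flow cytometry at 1 month (1MO) and 3 months (3MO) of age, with 3 libraries in each of the 4 groups, described as independent repeats. Library totals ranged from 8889083 to 20677785 estimated counts. Values are counts scaled to a common library total (CPM) after TMM scaling, a correction for differences in RNA composition between libraries, and n = 3 wherever a group mean ± SD is given. The gates were checked on marker genes. The summed CLP markers Il7r, Dntt, Rag1, Rag2 and Cd7 lay between 2706 and 3667 CPM in CLPs of both ages and between 392 and 702 CPM in MPPs. Ly6d, which the CLP gate excludes, was at 1.03 to 7.26 CPM in CLPs and 0 to 2.25 CPM in MPPs, and the summed MPP or stem markers lay between 752 and 881 CPM in CLPs and between 2148 and 2509 CPM in MPPs.

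In the respiratory chain, complexes I, III and IV pass electrons from NADH to oxygen and pump protons across the inner mitochondrial membrane, complex II feeds in electrons from succinate without pumping, and complex V uses the returning protons to make ATP. Complex II is built from nuclear genes alone, and all the others need both genomes. Quiescent stem cells are known to rely largely on glycolysis, and engagement of respiration accompanies their differentiation.

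Of the 97 members, 91 passed the filter on low counts, 78 nuclear and 13 mitochondrial. The 6 that did not pass, Cox4i2, Cox7a1, Cox7b2, Cox8b, Cox8c and Ndufa4l2, are all isoforms with restricted tissue expression. Cox7b2, Cox8b, Cox8c and Ndufa4l2 had 0 counts in all 12 libraries, Cox7a1 had at most 5 counts and Cox4i2 had at most 18 counts in any library.

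The sequences below are shown because the results turn on them. Cox6a2, the isoform of complex IV subunit 6A known from heart and skeletal muscle, was the only member past the adjusted threshold in the main test of any comparison, and Cox6a1 is its ubiquitous counterpart. Both stretches are the last 99 coding bases before the stop codon, read from GENCODE M21 transcripts on GRCm38, and capitals mark bases that are the same in both genes at the same distance from the end.

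Cox6a2: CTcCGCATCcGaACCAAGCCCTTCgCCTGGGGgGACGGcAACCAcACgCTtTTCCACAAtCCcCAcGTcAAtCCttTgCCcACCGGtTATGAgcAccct
Cox6a1: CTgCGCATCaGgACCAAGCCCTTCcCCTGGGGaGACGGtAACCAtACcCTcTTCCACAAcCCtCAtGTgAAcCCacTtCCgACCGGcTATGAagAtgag

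Of these 99 bases, 74 (74.7%) were the same, and over the whole coding sequences of 291 bases in Cox6a2 and 336 in Cox6a1, 200 of 337 aligned columns (59.3%) were identical. The longest run shared exactly by the coding sequences was 12 bases, and the untranslated parts of the transcripts were not compared. Cox6a2 lies on chr7:128205435-128206387 on the minus strand in 3 exons, and Cox6a1 on chr5:115345642-115348981 on the minus strand in 3 exons. Cox6a2 lies within the span of Itgad (chr7:128154376-128223816, plus strand), an integrin gene, and shares 70 exonic bases with it on the opposite strand. The library kit keeps strand, and the strand setting used in counting is not given in the sources used here. Itgad was at 2.98 to 5.31 CPM in CLPs and 0 to 3.62 CPM in MPPs (log2 fold change 0.76, SE 0.93, edgeR adjusted p = 0.838 at 1MO and 2.21, SE 0.98, edgeR adjusted p = 0.228 at 3MO).

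Cox6a2 was higher in CLPs than in MPPs at both ages. At 1MO its level was 20.8, 26.9 and 34.1 CPM in the CLP libraries and 1.61, 0.768 and 0.964 CPM in the MPP libraries. The 3MO values were 10.6, 24.4 and 14.4 CPM in CLPs and 2.64, 3.74 and 0.850 CPM in MPPs. Every CLP library lay above every MPP library, and the raw counts were 105 to 544 in CLPs and 7 to 52 in MPPs. Tested by quasi-likelihood in edgeR (Benjamini-Hochberg adjusted over all genes), the log2 fold change of CLPs over MPPs was 4.59 (SE 0.56, adjusted p = 0.000115) at 1MO and 2.77 (SE 0.51, adjusted p = 0.00373) at 3MO. With each library left out in turn it stayed between 4.40 and 4.94 at 1MO and between 2.36 and 3.27 at 3MO, past the threshold in 12 of 12 fits at each age.

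Its differences with age did not pass the threshold. In CLPs the log2 fold change of Cox6a2 from 1MO to 3MO was -0.72 (SE 0.47, edgeR adjusted p = 0.909), with overlapping groups. In MPPs it was 1.10 (SE 0.53, edgeR adjusted p = 1), again with overlapping groups. The difference between these age effects was -1.82 (SE 0.71), with an unadjusted p of 0.0213 and an adjusted p of 1 in edgeR's interaction test. With single libraries left out, the CLP value ran from -1.13 to -0.50 and the MPP value from 0.60 (without 3MO MPP replicate 2) to 1.51 (without 3MO MPP replicate 3).

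The ubiquitous counterpart did not show this contrast. Cox6a1 was at 20.1, 25.3 and 35.1 CPM in 1MO CLPs, 20.0, 18.5 and 26.0 CPM in 3MO CLPs, 28.2, 29.6 and 39.8 CPM in 1MO MPPs and 19.2, 27.0 and 36.1 CPM in 3MO MPPs. The groups overlapped, and the log2 fold change of CLPs over MPPs was -0.28 (SE 0.29, edgeR adjusted p = 0.791) at 1MO and -0.35 (SE 0.29, edgeR adjusted p = 0.597) at 3MO. Per kilobase of transcript, Cox6a2 was at 15.6 to 50.2 CPM in the 6 CLP libraries and 1.13 to 5.5 CPM in the 6 MPP libraries, and Cox6a1 at 32.4 to 61.5 and 33.7 to 69.6 CPM. The ranges of the isoforms, pooled over libraries, thus overlapped in CLPs, where both limits of Cox6a1 were the higher, and were apart in MPPs.

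**Figure D1:**
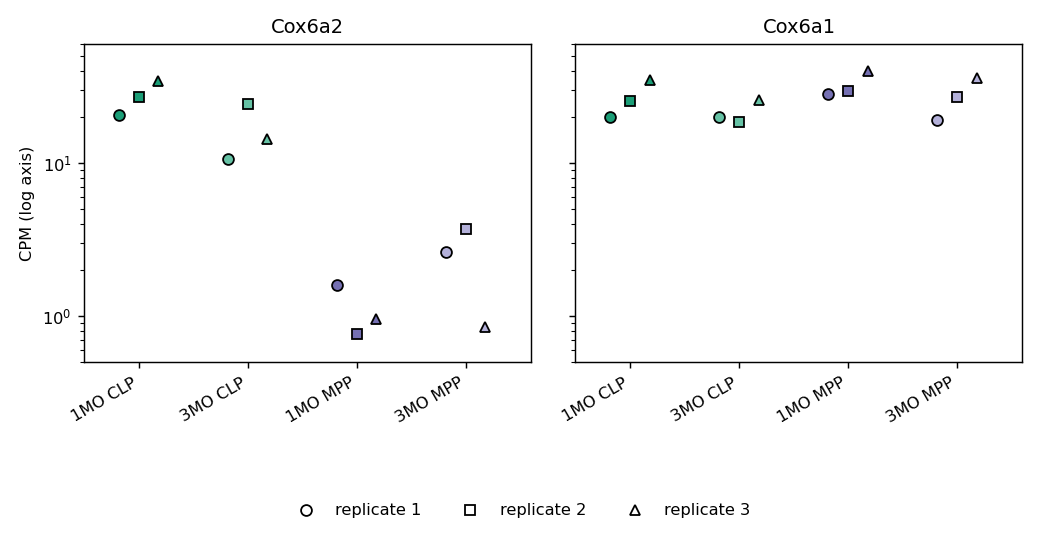
Level of Cox6a2 (left) and Cox6a1 (right) in CPM on a log axis, for each of the 12 libraries by group, with symbols for the replicate number. Cox6a2 sits between 10.6 and 34.1 CPM in the 6 CLP libraries and between 0.768 and 3.74 CPM in the 6 MPP libraries, while Cox6a1 sits between 18.5 and 39.8 CPM in all 12.

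Cox6a2 is also known from plasmacytoid dendritic cells, so markers of these cells, a list chosen after the values were seen, are given beside it. The summed level of the 12 markers was 2011 to 2434 CPM in CLPs and 806 to 1133 CPM in MPPs. At 1MO, 6 of the 10 tested markers were higher in CLPs (Spib, Runx2, Pacsin1, Irf8, Siglech and Tcf4), and at 3MO 3 were (Spib, Irf8 and Siglech), at an adjusted p under 0.05 in edgeR, beside 5.38% and 6.07% of all genes. Bst2, Ccr9, Cd300c and Irf7 were not called at either age, and Irf7 had a negative log2 fold change, of -0.45 (SE 0.42) at 1MO and -0.61 (SE 0.42) at 3MO. Siglech, a surface receptor of these cells, was at 51.7 to 76.5 CPM in CLPs and 0 to 5.04 CPM in MPPs. Klk1, another gene of the list, was at 0 in all CLP libraries and Cd209d in all but 1 of the 6. Irf8, Tcf4 and Runx2 made up most of the summed level. In bulk RNA, more cells of a type and more RNA per cell cannot be told apart, and the part of such cells in the Cox6a2 difference was not tested. The gene 4931431B13Rik, just downstream of Cox6a2, was at 0.720 to 2.62 CPM in CLPs and at 0 in all 6 MPP libraries (chosen after its values were seen). Its edgeR adjusted p between cell types was 0.0593 at 1MO and 0.0418 at 3MO, at levels near the floor.

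No other nuclear member was called between CLPs and MPPs in the main test. At 1MO, 1 of 78 nuclear members passed an adjusted p under 0.05 by edgeR, beside 5.38% of all 13367 genes tested, and 1 of 78 passed an unadjusted p under 0.05, beside 15.8% of all genes. DESeq2's Wald test also called 1 of 78, beside 8.81% of all genes. At 3MO edgeR again called 1 of 78, beside 6.07% of all genes, and 4 of 78 passed the unadjusted threshold (1 higher, 3 lower in CLPs), beside 19% of all genes. DESeq2 called 2 of 78 at 3MO, beside 10.3% of all genes, the second being Ndufa10. Of the 13 mitochondrial members, 0 were called at either age by edgeR or DESeq2, and 0 passed the unadjusted threshold.

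**Figure D2:**
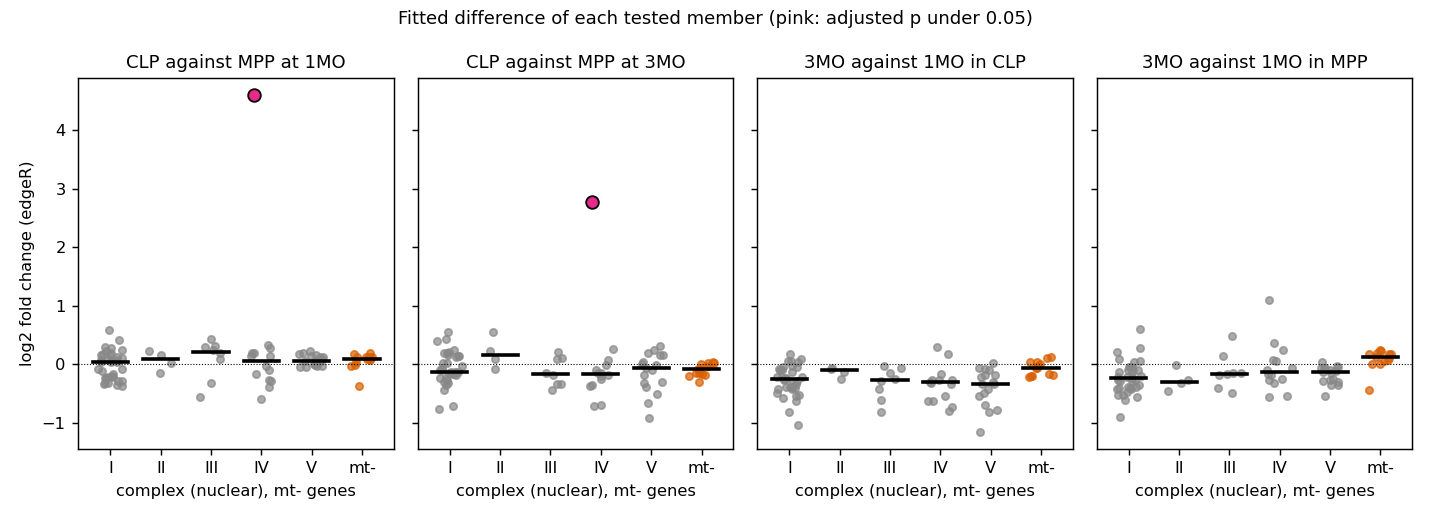
Fitted log2 fold change of each of the 91 tested members in 4 comparisons, with the nuclear members split by complex (grey), the mitochondrial members together (orange), a black bar at each median and pink points for an adjusted p under 0.05 in edgeR. Cox6a2 is the only pink point, at 4.59 (1MO) and 2.77 (3MO), and in CLPs the nuclear members mostly lie below 0 from 1MO to 3MO, with a median of -0.27.

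Among complex I genes, Ndufa10, an accessory subunit, was the nearest to a second call (chosen after its values were seen). At 3MO it was at 61.0, 33.9 and 44.1 CPM in CLPs and 93.8, 66.8 and 75.5 CPM in MPPs, so the groups did not overlap. The log2 fold change was -0.77 (SE 0.25), with an adjusted p of 0.0843 in edgeR and of 0.0398 in DESeq2, and from 0.0252 to 0.176 over all alternatives that kept the 12 libraries or the 6 compared. The methods describe both populations as sorted per mouse, so CLP and MPP libraries of 1 age and number may come from the same mouse, which the labels do not state. With age and number as a block in edgeR, the adjusted p was 0.0308. Without 3MO CLP replicate 1 the edgeR adjusted p was 0.0397, and this was the only omitted library that brought it past the threshold. At 1MO the CLP values of 52.6, 46.0 and 70.9 CPM overlapped the MPP values of 59.8, 44.1 and 51.6 CPM.

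The other complex I genes showed no call. Ndufv3, a subunit of the electron-input module, had the smallest p of complex I at 1MO, with 25.5, 27.4 and 36.7 CPM in CLPs and 15.8, 17.6 and 26.5 CPM in MPPs (log2 fold change 0.58, SE 0.34, edgeR adjusted p = 0.480). Ndufs4, an accessory subunit, had a log2 fold change of -0.35 (SE 0.28). Ndufs1, the largest core subunit, had the highest mean CPM of the nuclear genes of complex I, uncorrected for length, at 79.0 to 116 CPM in all 12 libraries. Over the 35 nuclear genes of complex I the median log2 fold change was 0.04 at 1MO and -0.13 at 3MO.

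Complex II, succinate dehydrogenase, is shared with the tricarboxylic acid cycle. Sdha, its flavoprotein, was at 243, 303 and 327 CPM in 1MO CLPs, 211, 261 and 263 CPM in 3MO CLPs, 274, 237 and 271 CPM in 1MO MPPs and 249, 251 and 273 CPM in 3MO MPPs. The groups overlapped, and per kilobase Sdha ranged from 72.9 to 113 CPM, above the ranges of the other Sdh genes. The iron-sulfur subunit Sdhb ranged from 9.20 CPM in 3MO MPP replicate 1 to 54.1 CPM in 1MO CLP replicate 3. The membrane anchors Sdhc and Sdhd ranged from 35.8 to 76.2 CPM and from 18.1 to 62.5 CPM. None of the 4 was called, and their log2 fold changes of CLPs over MPPs ran from -0.15 to 0.23 at 1MO and from -0.07 to 0.56 at 3MO.

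In complex III, the core proteins Uqcrc1 and Uqcrc2 were at 84.9 to 123 CPM and 71.9 to 155 CPM. The Rieske iron-sulfur protein Uqcrfs1 was at 24.1 to 53.9 CPM, and its log2 fold change of CLPs over MPPs was 0.30 (SE 0.28) at 1MO and 0.20 (SE 0.29) at 3MO. Uqcr11, a small accessory subunit, ranged from 1.31 CPM in 3MO CLP replicate 1 to 18.5 CPM in 1MO MPP replicate 3. None of the 8 genes of complex III was called.

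Besides the subunit 6A pair, complex IV has several genes with a restricted isoform. The ubiquitous Cox4i1 was at 51.2 to 153 CPM while Cox4i2, its hypoxia-linked isoform, was at 0 to 1.98 CPM. Cox6b1 was at 18.5 to 55.2 CPM and Cox6b2, known from testis, at 2.93 to 9.88 CPM, with counts in every library. Cox7a2 was at 1.27 to 27.1 CPM, Cox7b at 14.9 to 40.4 CPM and Cox8a at 16.6 to 58.3 CPM, while the muscle and testis forms of these subunits were at or near 0. Per kilobase, Cox6b2 was at 6.73 to 22.7 CPM and Cox6b1 at 38.2 to 114 CPM, which did not overlap. Cox7a2l, a factor in supercomplex assembly, had the highest mean CPM of the nuclear genes of complex IV before correction for length, at 87.2 to 184 CPM. Cox5a had a log2 fold change of 0.34 (SE 0.28) at 1MO, and Ndufa4 of -0.39 (SE 0.32). At 3MO, Ndufa4 was at 36.7, 43.9 and 34.8 CPM in CLPs and 44.8, 52.5 and 90.5 CPM in MPPs (log2 fold change -0.70, SE 0.32, edgeR adjusted p = 0.245). The groups were apart only by 43.9 against 44.8 CPM, and the log2 fold change was -0.34 without 3MO MPP replicate 3.

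In complex V, Atp5b and Atp5a1, the beta and alpha subunits of the catalytic head, had the highest levels per kilobase of the tested nuclear members, with means of 282 and 201 CPM per kilobase. Without correction for length they were at 396 to 670 CPM and 386 to 661 CPM, and Atp5f1, of the peripheral stalk, at 76.3 to 142 CPM. Their log2 fold changes of CLPs over MPPs at 1MO were 0.12 (SE 0.17), 0.19 (SE 0.18) and 0.18 (SE 0.26). The 3 genes that encode the same mature c subunit of the rotor, Atp5g1, Atp5g2 and Atp5g3, were at 12.9 to 38.7, 55.1 to 109 and 34.8 to 86.6 CPM. Atp5mpl, a small subunit (chosen after its values were seen), was at 9.84 to 10.7 CPM in 3MO CLPs and 13.4 to 20.3 CPM in 3MO MPPs, which did not overlap (log2 fold change -0.66, SE 0.30, edgeR adjusted p = 0.245).

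The mitochondrial genome encodes 13 proteins, and its messages are made as long polycistronic transcripts that are cut apart. Neighbouring messages can overlap, which bears on how reads are divided between them. The whole mt-Atp8 gene is shown for this reason, from the GENCODE M21 transcript, with the 43 bases that it shares with mt-Atp6 in capitals.

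mt-Atp8: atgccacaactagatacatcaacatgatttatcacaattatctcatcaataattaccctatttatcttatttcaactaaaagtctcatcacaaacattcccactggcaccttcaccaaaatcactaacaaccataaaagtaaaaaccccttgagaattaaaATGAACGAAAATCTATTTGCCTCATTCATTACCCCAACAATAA

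The mt-Atp8 gene spans 204 bases (chrM:7766-7969, plus strand), and the shared part is 21.1% of it and 6.3% of mt-Atp6 (chrM:7927-8607). The mt-Nd4l gene (chrM:9877-10173) shares 7 bases with mt-Nd4 (chrM:10167-11544), and mt-Nd5 (chrM:11742-13565) shares 14 bases with mt-Nd6 (chrM:13552-14070) on the opposite strand. Levels of mt-Atp8 and mt-Atp6, and of the other overlapping pairs, are therefore uncertain in how reads were split. The libraries were made from polyadenylated RNA, and most mitochondrial messages carry short poly(A) tails. The part of tails and of this selection in the levels, that of mt-Nd6 included, was not tested.

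Per kilobase of message, mt-Co1 of complex IV was the highest of the 13, at a mean of 3178 CPM per kilobase (range 2564 to 3863 over 12 libraries). It was followed by mt-Atp6 of complex V (2882), mt-Co2 (2386), mt-Co3 (1935) and mt-Cytb of complex III (1373). The complex I genes were lower, from 1206 CPM per kilobase in mt-Nd4 through mt-Nd5 (967), mt-Nd1 (870), mt-Nd4l (596), mt-Nd2 (569) and mt-Nd3 (270) to mt-Nd6 (61.1), and mt-Atp8 stood at 814. The ranges of neighbours in this order overlapped, except for mt-Nd2 against mt-Nd3 and mt-Nd3 against mt-Nd6. The lowest gene, mt-Nd6, is the only one of the 13 on the minus strand, and mt-Co1 was 52.0-fold higher per kilobase. The median was 967 CPM per kilobase for the mitochondrial members and 34.4 for the tested nuclear members, which ranged from 7.42 to 282. All levels per kilobase use the full annotated length without a correction for fragment size, which bears most on the shortest messages.

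**Figure D3:**
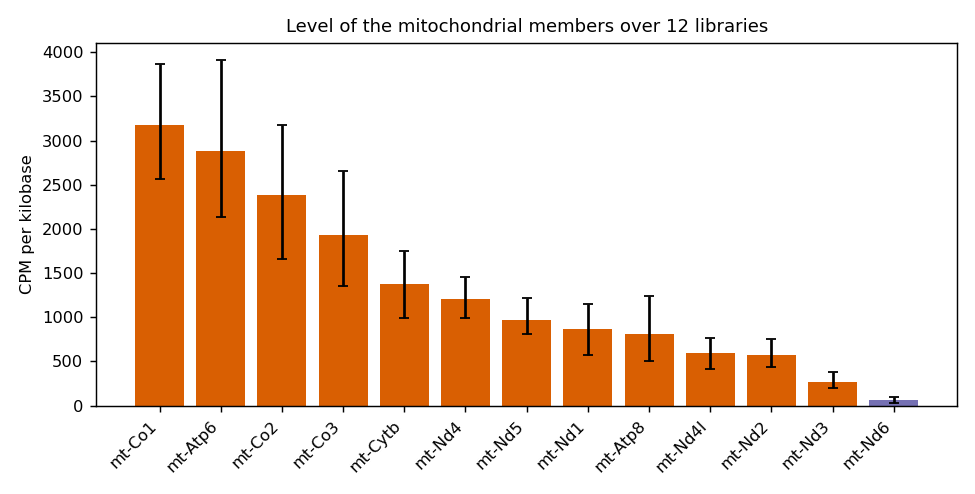
Mean level of the 13 mitochondrial members in CPM per kilobase over 12 libraries, with bars from the lowest to the highest library, orange for genes on the plus strand and purple for mt-Nd6 on the minus strand. The level falls from 3178 CPM per kilobase in mt-Co1 to 61.1 in mt-Nd6.

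The makeup of this pool was described by each gene's share of the length-corrected sum, without a test. The share of mt-Co1 was 18.9% ± 0.826 in 1MO CLPs, 18.8% ± 0.922 in 3MO CLPs, 18.3% ± 0.553 in 1MO MPPs and 18.6% ± 1.24 in 3MO MPPs (SD, n = 3). For mt-Nd6 it was 0.349% ± 0.0697, 0.296% ± 0.122, 0.484% ± 0.199 and 0.329% ± 0.0909 (SD, n = 3) in the same order. Some shares differed more than their spread: mt-Atp6 took 15.9% ± 0.409, 16.95% ± 1.18, 16.8% ± 0.434 and 17.7% ± 0.279 (SD, n = 3), lowest in 1MO CLPs and highest in 3MO MPPs. For mt-Nd2 the shares were 3.22% ± 0.0963, 3.62% ± 0.100, 3.12% ± 0.124 and 3.37% ± 0.178 (SD, n = 3), highest in 3MO CLPs (both genes chosen for their spread after their values were seen). None of the 13 genes was called in any comparison, and the log2 fold changes of CLPs over MPPs ran from -0.38 (mt-Nd6, SE 0.35) to 0.19 (mt-Nd1, SE 0.22) at 1MO and from -0.30 (mt-Atp8, SE 0.30) to 0.05 (mt-Nd5, SE 0.16) at 3MO.

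The mitochondrial members took 1.30 to 2.23% of all counts in a library and the 84 nuclear members 0.280 to 0.530%. The mitochondrial share was 1.34, 1.79 and 1.90% in 1MO CLPs, 1.43, 1.86 and 1.61% in 3MO CLPs, 1.70, 1.45 and 1.81% in 1MO MPPs and 1.30, 1.88 and 2.23% in 3MO MPPs. The nuclear share was 0.313, 0.432 and 0.511%, then 0.329, 0.390 and 0.357%, then 0.374, 0.335 and 0.530%, then 0.280, 0.376 and 0.480% in the same order. Both shares overlapped between all groups.

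The log2 ratio of mitochondrial to nuclear summed CPM was 2.10, 2.05 and 1.89 in 1MO CLPs and 2.12, 2.26 and 2.17 in 3MO CLPs. The MPP libraries stood at 2.19, 2.12 and 1.77 at 1MO and at 2.22, 2.33 and 2.21 at 3MO. In both cell types the 3MO libraries lay above the 1MO libraries without overlap, by as little as 2.12 against 2.10 in CLPs and 2.21 against 2.19 in MPPs. The means were 2.02 ± 0.109, 2.18 ± 0.0701, 2.03 ± 0.223 and 2.25 ± 0.0633 (SD, n = 3) in 1MO CLPs, 3MO CLPs, 1MO MPPs and 3MO MPPs. No test was made of this score. As the difference of mean log2 CPM, which weighs each member equally, the means were 4.42 ± 0.214, 4.63 ± 0.122, 4.42 ± 0.311 and 4.72 ± 0.181 (SD, n = 3) in the same order, again higher at 3MO in both cell types. The libraries then overlapped between ages, at 4.22 to 4.65 against 4.53 to 4.76 in CLPs and 4.06 to 4.61 against 4.52 to 4.87 in MPPs.

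**Figure D4:**
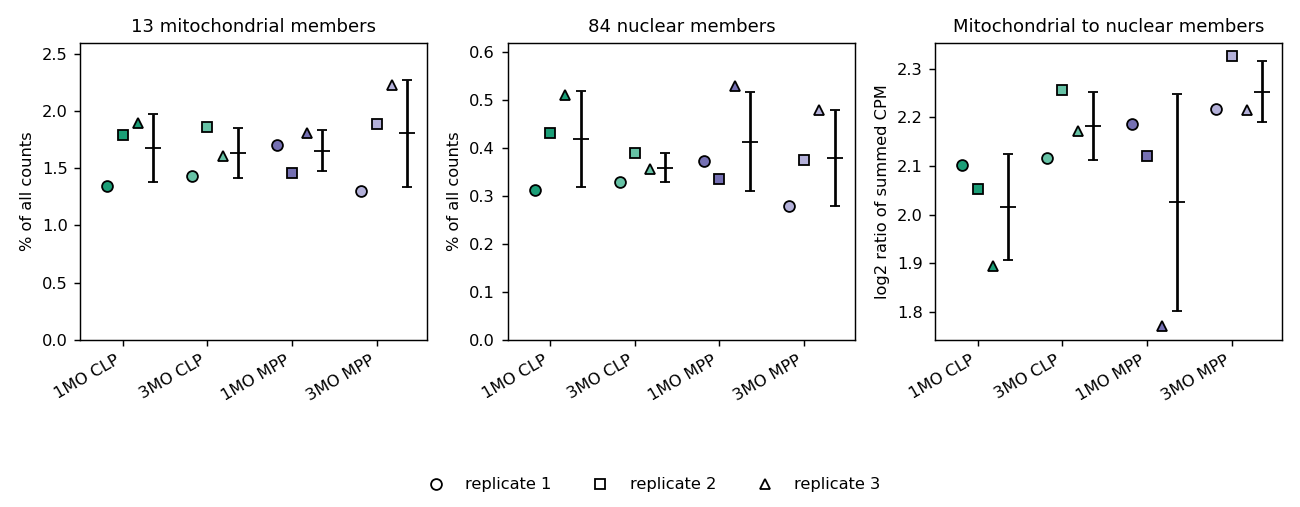
Share of all counts taken by the 13 mitochondrial members (left) and the 84 nuclear members (middle), in percent, and the log2 ratio of their summed CPM (right), with a point for each library and a bar for the mean ± SD of 3. The shares overlap between groups, and the log2 ratio runs from 1.77 to 2.19 at 1MO and from 2.12 to 2.33 at 3MO.

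With age, no member was called. In CLPs, 0 of 78 nuclear members passed the adjusted threshold in edgeR, beside 0.0748% of all genes, and 0 of 78 in DESeq2, beside 0.427% of all genes. At an unadjusted p under 0.05 there were 2 of 78, both lower at 3MO, beside 5.9% of all genes. These were Ndufv3, which was at 25.5, 27.4 and 36.7 CPM at 1MO and 15.5, 16.3 and 19.4 CPM at 3MO (log2 fold change -0.81, SE 0.34, edgeR adjusted p = 0.809), and Atp5mpl, which went from 13.98 to 21.8 CPM at 1MO to 9.84 to 10.7 CPM at 3MO (log2 fold change -0.77, SE 0.30, edgeR adjusted p = 0.785). For both the age groups did not overlap.

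In MPPs, 0 of 78 nuclear members passed in edgeR, beside 0.0224% of all genes, and 0 of 78 in DESeq2, beside 0.225%. Ndufa10 alone passed the unadjusted threshold, beside 3.48% of all genes, with 59.8, 44.1 and 51.6 CPM at 1MO and 93.8, 66.8 and 75.5 CPM at 3MO (log2 fold change 0.60, SE 0.25, edgeR adjusted p = 1). In the interaction of age and cell type, 0 of 78 passed in edgeR, beside 0% of all genes, and 0 of 78 in DESeq2, beside 0.045%. The unadjusted threshold was passed by 2 of 78, beside 3.21% of all genes, namely Cox6a2 and Ndufa10 (log2 difference -0.89, SE 0.35). Of the 13 mitochondrial members, 0 passed either threshold in any of these comparisons.

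Although no gene was called, the nuclear members leaned the same way in CLPs. From 1MO to 3MO, 70 of 78 (89.7%) had a negative log2 fold change, against 51.2% of all genes tested, and their median was -0.27 against -0.01 for all genes. The medians were -0.25 for complex I, -0.10 for complex II, -0.27 for complex III, -0.31 for complex IV and -0.33 for complex V. The mitochondrial median was -0.07, with 8 of 13 genes negative. In MPPs, 64 of 78 nuclear members (82.1%) were negative with a median of -0.18, against 51.8% and -0.01 for all genes. There, 11 of 13 mitochondrial members were positive with a median of 0.13. Between cell types, the nuclear and mitochondrial medians were 0.06 and 0.09 at 1MO and -0.11 and -0.07 at 3MO, against -0.02 and -0.03 for all genes. The age comparisons and the cell type comparisons share libraries, so these medians are not independent of each other.

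The nuclear medians followed single libraries. Of the 78 tested nuclear members, 32 had their highest level in 1MO MPP replicate 3 and 31 in 1MO CLP replicate 3, and 42 had their lowest level in 3MO MPP replicate 1. The median centred log2 CPM of the nuclear members, in which each gene's mean over the 12 libraries is set to 0, was 0.62 and 0.51 in the first 2 of these and -0.63 in the third. The mitochondrial members were lowest in 3MO MPP replicate 1 for 9 of 13 genes and highest in 3MO MPP replicate 3 for 11 of 13. In MPPs, the nuclear median from 1MO to 3MO was 0.08 without 1MO MPP replicate 3 and -0.51 without 3MO MPP replicate 3. In CLPs it stayed negative with any library left out, from -0.48 without 1MO CLP replicate 1 to -0.09 without 1MO CLP replicate 3. Between cell types its sign depended on which library was left out, from -0.16 (without 1MO CLP replicate 3) to 0.28 (without 1MO MPP replicate 3) at 1MO and from -0.28 (without 3MO MPP replicate 1) to 0.20 (without 3MO MPP replicate 3) at 3MO. The mitochondrial median with age also changed sign, from -0.20 to 0.06 in CLPs and from -0.06 to 0.29 in MPPs.

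Cytosolic ribosomal protein genes moved with the nuclear members from library to library. The median centred log2 CPM of the cytosolic ribosomal proteins was 0.77 in 1MO MPP replicate 3, 0.65 in 1MO CLP replicate 3 and -0.75 in 3MO MPP replicate 1. For the shortest 1336 of all tested genes, of at most 1020.5 bases, it was 0.51, 0.34 and -0.43 in the same libraries. This set includes the members of that length, nuclear and mitochondrial, so it is not independent of either. The mitochondrial members, with a median length of 784 bases against 737 for the nuclear members, stood at 0.05, 0.23 and -0.43, so they were not raised in 1MO MPP replicate 3 as the nuclear members were. From 1MO to 3MO in CLPs, 81 of 82 tested ribosomal protein genes were negative with a median of -0.47, and 0 passed an adjusted or unadjusted p under 0.05 in edgeR or an adjusted p in DESeq2. In MPPs, 79 of 82 were negative with a median of -0.21, and again 0 passed. In CLPs, the 39 nuclear members with the shorter transcripts had a median of -0.43 with age and the 39 with the longer transcripts -0.19. The medians of the shortest and the longest 1336 of all genes were -0.22 and 0.09 there. In a fit with an offset for transcript length in each library, added after seeing the data, the nuclear median was -0.08 in CLPs and -0.09 in MPPs from 1MO to 3MO, with 55 and 51 of 78 genes negative. The mitochondrial medians were then 0.17 and 0.22. The part of transcript length in the nuclear medians was not tested beyond this fit.

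**Figure D5:**
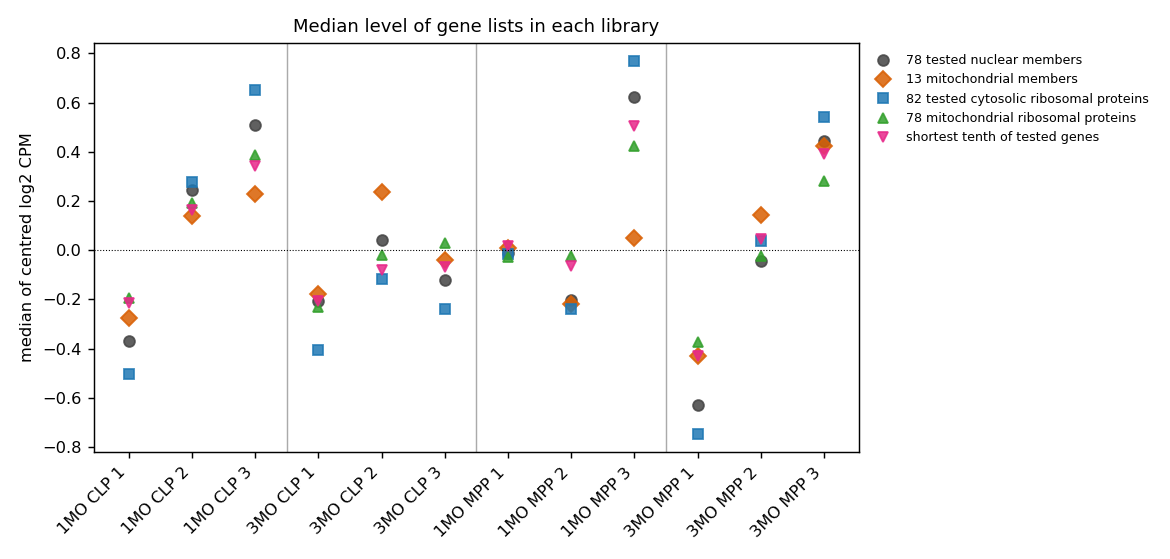
Median over genes of centred log2 CPM in each of the 12 libraries, for the tested nuclear members, the mitochondrial members, cytosolic and mitochondrial ribosomal proteins and the shortest 1336 tested genes, with vertical lines between the groups. The nuclear members run from -0.63 in 3MO MPP replicate 1 to 0.62 in 1MO MPP replicate 3, and the ribosomal proteins from -0.75 to 0.77 in the same libraries.

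Markers of other cells and of cell handling also differed between libraries. The summed stroma markers (Col1a1, Col1a2, Col3a1, Cxcl12 and Lepr) were at 577, 204 and 208 CPM in 1MO CLPs and at 0 to 7.75 CPM in 3MO CLPs, and at 12.2 to 77.9 CPM in 1MO and 5.39 to 13.3 CPM in 3MO MPPs. Col1a1 and Col1a2, collagen genes, were called lower at 3MO in CLPs (edgeR adjusted p = 0.0337 and 0.00378), 2 of the 10 genes called in that comparison over all genes. The summed B cell markers were at 81.9 to 117 CPM in 1MO CLPs and 38.5 to 61.3 CPM in 3MO CLPs, without overlap, and 5 of 5 had a negative log2 fold change (median -1.93), with 0 called by edgeR or DESeq2 and 1 at an unadjusted p under 0.05. The summed erythroid markers were high in replicate 3 of every group, at 127 and 82.4 CPM in 1MO and 3MO CLPs and 132 and 106 CPM in 1MO and 3MO MPPs, and at 9.77 to 27.5 CPM in the other 8 libraries. The nuclear members most often peaked in 2 of these replicate 3 libraries, those of 1MO. The summed isolation response genes, such as Fos and Jun, were at 1368 CPM in 3MO CLP replicate 1 and 1292 CPM in 3MO MPP replicate 1, the library in which most nuclear members were lowest. In the other 3MO libraries they were at 215 to 347 CPM, within the 1MO range of 186 to 580 CPM, and replicate 1 was the highest in every group. Their part in the nuclear medians was not tested.

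The genes that build, regulate and feed the chain were described from lists of their own. Of 33 assembly factors, 78 mitochondrial ribosomal proteins, 27 genes of mitochondrial DNA expression, 10 nuclear regulators, 17 genes of the tricarboxylic acid cycle and 9 carriers, all tested, edgeR called 1 gene in any comparison. This was Mrpl48, of the large mitochondrial ribosomal subunit, at 12.7, 18.2 and 24.4 CPM in 3MO CLPs and 35.8, 30.1 and 42.5 CPM in 3MO MPPs (log2 fold change -0.97, SE 0.27, edgeR adjusted p = 0.0465). DESeq2 called 1 mitochondrial ribosomal protein and 2 genes of mitochondrial DNA expression in that comparison, beside 10.3% of all genes, and 0 genes of the 6 lists in the others. At an unadjusted p under 0.05 in edgeR, mitochondrial ribosomal proteins had 0 to 4 genes in a comparison, assembly factors 0 to 2, mitochondrial DNA expression 0 to 3, and regulators, the tricarboxylic acid cycle and carriers 0 to 1. The largest of these counts, 4 of 78 mitochondrial ribosomal proteins at 3MO between cell types, stood beside 19% of all genes, and the call of Mrpl48 beside 6.07%. From 1MO to 3MO in CLPs, 62 of 78 mitochondrial ribosomal proteins were negative with a median of -0.19. Medians of the other 5 lists in that comparison ran from -0.13 for assembly factors to 0.07 for nuclear regulators. Tfam, which packages mitochondrial DNA and starts its transcription, was at 35.8 to 61.5 CPM in all 12 libraries (chosen after its values were seen).

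The promoters of nuclear members were searched for 3 motifs of factors known to regulate respiration genes, on both strands, in RefSeq windows on GRCm38.p6 from 250 bases before to 50 after the start. Of the 84 nuclear members, 67 had a promoter in the table by symbol, and Cox6a2 was not among them. The NRF1 motif GCATGCGC was present in 10 of 67 (14.9%), against 3.05% of all 27025 genes in the table. The ETS motif CCGGAAG was present in 17 of 67 (25.4%) against 9.93%, and the YY1 motif AAGATGGCG in 7 of 67 (10.4%) against 1.64%. A match describes letters in a window and is not evidence of binding.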

How the data were processed

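RNA of Ly6d- CLPs and Flk2+ MPPs was profiled in 12 libraries, 3 in each of 4 groups taken from the sample labels. The authors made polyadenylated RNA libraries and processed reads with FastQC, UMI-tools, Trim Galore, STAR and Salmon (build mm10 per the labels). The values they deposited are estimated counts, 1 for each gene and library, which were scaled by transcript length. The strand setting of counting and the annotation release are not given in the sources used here.

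The estimated counts were rounded and tested with edgeR 4.0.16 in R 4.3.3 (filterByExpr, minimum count 10, TMM, quasi-likelihood test on all 4 groups in one fit), with p-values adjusted by Benjamini-Hochberg over 13367 genes at 0.05. DESeq2 1.42.0 was an alternative. CPM used TMM scaling, and log2 CPM a prior count of 2. Coordinates and lengths came from GENCODE M21, which held 32158 of the 32285 identifiers (99.6%). The table holds 1 processed pseudogene entry, so reads from pseudogene copies of members have no entries of their own. In counts simulated for 3MO against 1MO in CLPs over 13077 genes, 143 of 200 genes changed 3-fold were recovered (71.5%) and 9 unchanged genes were called. The changed genes were drawn above a minimum expected count, and genes were simulated independently of each other. The share recovered therefore does not give the power for members at low counts. Genes named in the text are all mitochondrial members, the Sdh genes, of complexes I, III, IV and V the 3 smallest p between cell types at 1MO and the 2 most abundant, restricted isoforms with their counterparts, and called genes of related lists, at most 3 a list. 1 gene that this rule names is not reported here. Members and lists were chosen with earlier results of these data known. Figures were drawn with matplotlib. P-values measure the spread between these libraries.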

Additional observations from a re-analysis of the deposited data

How the results depend on the processing

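The main count of 1 nuclear member called between CLPs and MPPs, Cox6a2, was 0 at both ages when at least 10 counts were required in every library, since that filter removes Cox6a2, which had 7 counts in a 1MO MPP library. At 3MO the count was 2, with Ndufa10 added, under no filter beyond 1 count (edgeR adjusted p = 0.0467), DESeq2's Wald test (0.0398), the replicate block (0.0252) and the replicate block by age and number (0.0308), and 1 to 2 with each library left out. Deviations of same-numbered libraries from their group means correlated at -0.0339 to 0.213, which does not decide whether a number marks a shared repeat. The labels do not say what a number marks, so the numbers were not treated as pairs in the main test. As a hint from the data that a number may mark a shared repeat, 8 of 12 libraries correlated best with their own number, and erythroid and isolation response markers followed the number in every group. The replicate block changed no other call of a member and moved the calls over all genes from 719 to 915 at 1MO and from 812 to 1007 at 3MO. Counts of mitochondrial members called were 0 under every alternative, and 0 nuclear members were called with age. With an offset for transcript length, added after seeing the data, the nuclear median between cell types at 3MO turned from -0.11 to 0.05, the mitochondrial median from -0.07 to 0.02, and the mitochondrial age median in CLPs from -0.07 to 0.17. The log2 ratio of mitochondrial to nuclear summed CPM is by construction the same under other scalings. With each library left out it ranged over 1.97 to 2.08 in 1MO CLPs, 2.14 to 2.21 in 3MO CLPs, 1.95 to 2.15 in 1MO MPPs and 2.22 to 2.27 in 3MO MPPs. Depth limits Cox6a2 in MPPs, which rests on 7 to 52 counts a library.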

Other observations

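Most tested entries of glycolysis, the cytosolic route to ATP, had a lower fitted level in CLPs than in MPPs. Of 18 tested entries of the list, 14 had a negative log2 fold change at 1MO (median -0.37) and 15 at 3MO (median -0.23). Over all genes 52.2% and 52.4% were negative, with medians of -0.02 and -0.03. The medians of this list were not refitted with libraries left out. Aldoa (ENSMUSG00000030695), an aldolase, was at 110 to 120 CPM in 1MO CLPs and 167 to 250 CPM in 1MO MPPs, and at 93.4 to 123 CPM in 3MO CLPs and 138 to 220 CPM in 3MO MPPs, with edgeR adjusted p-values of 0.0361 and 0.0323. Ldhb, a lactate dehydrogenase subunit, was at 9.99 to 15.1 CPM in 3MO CLPs and 26.4 to 43.7 CPM in 3MO MPPs (log2 fold change -1.55, SE 0.43, edgeR adjusted p = 0.0464). By edgeR 1 of 18 was called at 1MO and 2 of 18 at 3MO, beside 5.38% and 6.07% of all genes. DESeq2 called 2 of 18 at each age, beside 8.81% of all genes at 1MO and 10.3% at 3MO, so its share called was near that of all genes. With age, 0 genes of the list were called by edgeR or DESeq2, and 1 in CLPs and 0 in MPPs passed an unadjusted p under 0.05. The symbol Aldoa occurs on 2 identifiers in the table, which may share reads.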
